A study of Homo sapiens with 4 samples.

Results

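The SIX-family and EYA genes were described here as 9 of the 20007 protein-coding genes of the human annotation: *SIX2*, *SIX3*, *SIX4*, *SIX5*, *SIX6*, *EYA1*, *EYA2*, *EYA3* and *EYA4*. They were chosen by family name, and the rule uses no measured value. Peaks were assigned to a gene when they overlapped its body or the 20 kb on either side, and a peak counted as a promoter peak when its centre lay between 1000 bp upstream and 100 bp downstream of any annotated transcription start site of the gene. The 9 windows held 54 peaks in 4 lists: 18 of 15141 SS18::SSX peaks and 23 of 35605 WDR5 peaks after DMSO, and 3 of 1175 SS18::SSX peaks and 10 of 14123 WDR5 peaks after MS67.

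SIX-family proteins are homeodomain transcription factors that carry a further conserved region, the SIX-type domain, through which they bind EYA proteins. EYA proteins do not bind DNA themselves. They act as transcriptional cofactors of SIX-family proteins and carry a phosphatase activity, and both families work with PAX and DACH proteins in the development of the eye, ear, kidney and skeletal muscle.

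The samples were CUT&RUN libraries, in which antibody-directed cleavage releases DNA fragments at the sites of a chromatin protein. All came from HSSY II, an established human synovial sarcoma line that carries the SS18::SSX1 fusion oncoprotein. Cells were given DMSO, the vehicle, or 2.5 µM MS67 for 4 days, and MS67 is a PROTAC that directs WDR5, a chromatin adaptor protein, to degradation. Each of the 4 combinations of target and treatment was 1 library of 1000000 HSSY II cells mixed with 50000 NIH-3T3 mouse cells as a spike-in. The paper describes these mouse cells as carrying H2B-GFP. HSSY II is a single line, and no difference described here has a replicate check. The peak lists hold no spike-in scaling and no expression level.

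The libraries differed in depth. The MACS2 fold was assumed to be (summit fragments + 1) / (local background + 1), and its p-value the Poisson tail above the summit. Under this assumption they together fix the number of fragments piled up at the summit of a peak and the local background. The lowest background of a library was taken as its coverage, at 0.541 fragments per bp for SS18::SSX with DMSO and 0.737 with MS67. The WDR5 libraries had 0.368 with DMSO and 0.168 with MS67. The ratio of MS67 to DMSO coverage was therefore 1.36 in the SS18::SSX libraries and 0.458 in the WDR5 libraries, and the part of depth in the WDR5 counts was not tested. Scaled values, where given, hold no sampling error. Among 4 genes linked to synovial sarcoma (*TLE1*, *FZD10*, *SOX2* and *BCL2*), 3 had an SS18::SSX peak in the window with DMSO (37.2% of all protein-coding genes). Of the 4, 1, *BCL2*, had one at a promoter (13.4%), while *TLE1* had 0. Their windows ran from 42512 bp for *SOX2* to 236783 bp for *BCL2*, against a median of 67466 bp for all protein-coding genes.

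With DMSO, 5 of the 9 genes had an SS18::SSX peak in the window (37.2% of all protein-coding genes) and 7 had a WDR5 peak (79.3%). With MS67, 2 genes had an SS18::SSX peak (4.53%) and 3 had a WDR5 peak (60.2%). At promoters, SS18::SSX was called with DMSO at 3 genes, *SIX3*, *EYA1* and *EYA4* (13.4%), and with MS67 at 0 (0.725%). WDR5 was called at the promoters of 3 genes with DMSO, *SIX2*, *EYA1* and *EYA4* (43%), and of 1 gene with MS67, *EYA1* (27.7%). The WDR5 window share with DMSO lay near its background. All 23 WDR5 peaks with DMSO were below 6-fold enrichment, so at a stricter threshold (−log10 q above 3 and fold above 6, which 17.9% of that list passed) 0 WDR5 peaks with DMSO and 1 with MS67 remained, and no gene had a WDR5 promoter peak in either treatment. With fold above 3 for SS18::SSX, 15 peaks with DMSO and 2 with MS67 remained, and SS18::SSX kept its 3 promoters with DMSO. With 9 genes, each gene moves such a share by much, and the windows differed in length from 43705 bp for *SIX6* to 434593 bp for *EYA1*, with a median of 54813 bp against 67466 bp for all protein-coding genes.

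**Figure D1:**
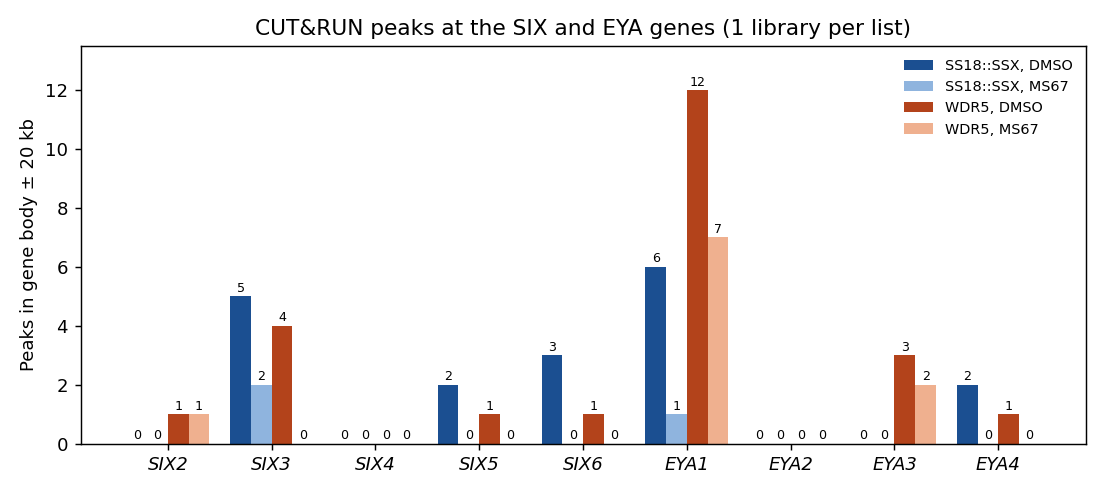
Number of CUT&RUN peaks (vertical axis) in the body and 20 kb flanks of each of the 9 genes (horizontal axis), with 1 bar per target and treatment and 1 library per bar. *EYA1* has the most WDR5 peaks, 12 with DMSO and 7 with MS67, *SIX3* has 5 SS18::SSX peaks with DMSO, and *SIX4* and *EYA2* have 0 in all 4 lists.

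The windows summed to 1490350 bp. The 18 SS18::SSX peaks with DMSO had an exact 95% Poisson interval of 10.7 to 28.4, and the 3 with MS67 one of 0.619 to 8.77. The WDR5 count was 23 with DMSO (14.6 to 34.5) and 10 with MS67 (4.80 to 18.4). These intervals, and all others below, cover counting error only. Per 100 kb of window, SS18::SSX had 1.21 peaks with DMSO against 0.881 over the windows of all protein-coding genes, and WDR5 had 1.54 against 2.38. With MS67 these densities were 0.201 against 0.0627 for SS18::SSX and 0.671 against 1.06 for WDR5. The Poisson interval of the SS18::SSX density with DMSO, 0.716 to 1.91, held the value of all protein-coding genes, and so did that with MS67, 0.0415 to 0.588. Without the window of *SIX3* the SS18::SSX densities were 0.899 with DMSO and 0.0692 with MS67, near those of all protein-coding genes. *SIX3* was picked after its density was seen, and no other window was left out in turn. For WDR5 the interval was 0.978 to 2.32 with DMSO and 0.322 to 1.23 with MS67, of which the second held the value of all protein-coding genes. Neighbouring peaks are not independent, and with peaks within 1 kb merged 11 SS18::SSX and 19 WDR5 peaks with DMSO remained. The intervals do not measure the spread between genes, so no difference from all genes is read from them.

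*SIX3*, a regulator of forebrain and eye development, was the member with the most SS18::SSX peaks per length, 11.3 per 100 kb with DMSO. The gene lies on the plus strand at chr2:44941702-44946071 (hg38, ENSG00000138083). Of its 5 SS18::SSX peaks with DMSO, 1 covered its start site: chr2:44941673-44941821 was 3.75-fold enriched with −log10 q of 3.87 and 19 fragments at the summit. This start is also a promoter of the antisense gene *SIX3-AS1*, and CUT&RUN reads have no strand that would separate both. The highest of the 5, chr2:44954291-44954531, lay past the 3′ end of *SIX3*, 12709 bp from its start, at the promoter of the RNA gene ENSG00000225156. It was 5.27-fold enriched with −log10 q of 8.65 and 26 fragments. Downstream of it, 2 more peaks lay in an intron of ENSG00000225156, and the remaining one, at chr2:44936990-44937247, lay in an intron of the upstream RNA gene *LINC01833*. Only 1 of the 5 peaks was thus in the body of *SIX3* itself.

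SS18::SSX was called at 2 sites around *SIX3* with MS67, and these were 2 of the 3 MS67 peaks in all windows. The site chr2:44954424-44954627 shared 108 bp with the highest DMSO peak and was the only overlap of an SS18::SSX DMSO peak with an MS67 peak at the 9 genes. It was 3.65-fold enriched with −log10 q of 3.35 and 22 fragments, against 26 with DMSO. Divided by the coverage of its own library, the summit went from 48.1 with DMSO to 29.8 with MS67, a ratio of 0.621, and the median ratio over all 911 SS18::SSX pairs was 0.699 (quartiles 0.573 and 0.845). The other, chr2:44936268-44936474, was 3.47-fold enriched with −log10 q of 3.68 and 26 fragments, lay at the promoter of *LINC01833*, and ended 516 bp from the nearest DMSO peak.

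WDR5 was called 4 times around *SIX3* with DMSO and 0 times with MS67. The highest, chr2:44954797-44955979, was 5.11-fold enriched with −log10 q of 9.75 and 29 fragments. It contained whole the SS18::SSX peaks at chr2:44954949-44955183 (3.17-fold, 15 fragments) and chr2:44955326-44955735 (3.82-fold, 18 fragments). Both targets thus met on 1 site 3′ of *SIX3* with DMSO, beside the SS18::SSX peak that overlapped one with MS67, which itself overlapped no WDR5 peak. None of the 4 WDR5 peaks lay at a *SIX3* promoter.

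Sequences at *SIX3* are shown for the part of the start-site peak before the annotated start, for the stretch called as SS18::SSX with both treatments, and for the first SS18::SSX peak inside the WDR5 peak. They are the hg38 plus strand, 5′ to 3′, of chr2:44941673-44941701, chr2:44954424-44954531 and chr2:44954949-44955183. Capitals mark matches on either strand to 4 motifs: CCAAT, bound by NFY, GGGCGG, bound by SP and KLF factors, CACGTG, a palindromic E-box, and TCAGGTT, the core of the MEF3 site bound by SIX-family proteins. The stretch called with both treatments held 2 CACGTG matches, and the site shared with WDR5 held 1 CCAAT match, read on the minus strand.
SIX3 start site: agaaaagcgaaacaaaatgtttcaatgct
SIX3 kept site: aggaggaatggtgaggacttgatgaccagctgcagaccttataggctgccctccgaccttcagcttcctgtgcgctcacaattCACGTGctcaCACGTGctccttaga
SIX3 cobound site: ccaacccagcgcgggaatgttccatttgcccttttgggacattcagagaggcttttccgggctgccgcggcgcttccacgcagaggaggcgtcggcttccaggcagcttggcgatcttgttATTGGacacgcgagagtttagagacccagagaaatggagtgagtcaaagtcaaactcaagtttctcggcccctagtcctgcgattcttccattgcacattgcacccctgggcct

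Over the 4 lists, the genes outside the family whose windows were covered most like that of *SIX3* were *ULBP2*, *PRPH* and *FOXL2NB*. The measure was the Euclidean distance of log2(percent of window covered + 0.1) over the 4 libraries, and it was 0.50, 0.63 and 0.86. For *SIX3* the covered percent was 2.91 with SS18::SSX and 5.13 with WDR5 after DMSO, and 0.926 and 0 after MS67.

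*SIX6*, the closest relative of *SIX3* and a regulator of eye and pituitary development, had 3 SS18::SSX peaks with DMSO, all inside its body at chr14:60509146-60512850 (plus strand, ENSG00000184302). The broadest, chr14:60509304-60510134, was 831 bp wide with its centre in coding sequence 573 bp past the start site, and it was 4.39-fold enriched with −log10 q of 6.79 and 26 fragments. Intronic peaks lay 1489 bp past the start site (3.41-fold, 20 fragments) and 1823 bp past it (4.18-fold, 25 fragments). None fell within the promoter limits. The gene *C14orf39* overlaps *SIX6*, and both intronic peaks lay in introns of both genes. The single WDR5 peak of the window, chr14:60514818-60515160, was 5.35-fold enriched with −log10 q of 5.11 and 12 fragments, and lay in an intron of *C14orf39* at the promoter of the RNA gene ENSG00000258670. With MS67 the window held 0 peaks of either target.

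The intronic *SIX6* site farthest from the start is shown because it held 3 GGGCGG matches, in capitals, with a GC content of 71.0%. It is the plus strand of chr14:60510892-60511046, 5′ to 3′.
SIX6 intron site: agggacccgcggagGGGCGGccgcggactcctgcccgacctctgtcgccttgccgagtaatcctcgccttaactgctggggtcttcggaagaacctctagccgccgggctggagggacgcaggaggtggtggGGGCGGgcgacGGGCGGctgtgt

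*SIX2*, a factor of nephron progenitor cells in the kidney, was the only SIX-family gene with a WDR5 promoter peak and the only one with WDR5 called in both treatments. The gene lies on the minus strand at chr2:45005182-45009452 (ENSG00000170577). With DMSO the peak chr2:45009789-45010945 was 1157 bp wide, 5.21-fold enriched, and had −log10 q of 12.2 and 36 fragments over a background of 6.10. This was the highest −log10 q in any of the 9 windows. With MS67 the peak chr2:45010420-45011001 was 582 bp wide and 4.24-fold enriched, with −log10 q of 3.64 and 15 fragments over a background of 2.77. The peaks shared 526 bp, but the DMSO centre lay 915 bp upstream of the start site and the MS67 centre 1259 bp upstream, so that only the first met the promoter definition. Per coverage of the own library, the summits were 97.9 and 89.0, a ratio of 0.909. SS18::SSX was not called in the window, and the nearest peak lay 45718 bp from the gene with DMSO.

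The 300 bp around the *SIX2* summit with DMSO are shown as the site of highest −log10 q. They are the plus strand of chr2:45009824-45010123, 5′ to 3′, with a GC content of 62.3% and 1 GGGCGG match read on the minus strand, in capitals.
SIX2 WDR5 summit: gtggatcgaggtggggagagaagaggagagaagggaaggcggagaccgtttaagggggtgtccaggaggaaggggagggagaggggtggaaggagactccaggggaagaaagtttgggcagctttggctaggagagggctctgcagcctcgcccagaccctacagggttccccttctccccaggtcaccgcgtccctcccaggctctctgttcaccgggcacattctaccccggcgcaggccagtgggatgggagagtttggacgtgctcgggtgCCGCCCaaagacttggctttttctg

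*SIX5*, which lies next to the myotonic dystrophy kinase gene *DMPK*, had no promoter peak in any list. The gene is on the minus strand at chr19:45764785-45769252 (ENSG00000177045). Around it, 2 SS18::SSX sites were called with DMSO, both upstream of it in *DMPK*. The nearer, chr19:45770279-45770557, was centred 1166 bp upstream of the *SIX5* start, in an untranslated exon of *DMPK* and at a promoter of the antisense gene *DM1-AS*, with 4.37-fold enrichment, −log10 q of 3.77 and 14 fragments. The farther, chr19:45771283-45771418, was 4.10-fold enriched with −log10 q of 2.96 and 12 fragments. WDR5 was called once with DMSO, at chr19:45766750-45767543 in *SIX5* coding sequence and at another promoter of *DM1-AS*, 4.22-fold enriched with −log10 q of 6.93 and 26 fragments. With MS67 both targets had 0 peaks.

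*SIX4*, a paralogue with roles in muscle development (chr14:60709539-60724351, minus strand, ENSG00000100625), had 0 peaks in all 4 lists over a window of 54813 bp. The nearest SS18::SSX peak with DMSO was 198493 bp away, in *SIX6*. Of all protein-coding genes, 17.8% had a window with no peak in any list.

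**Figure D2:**
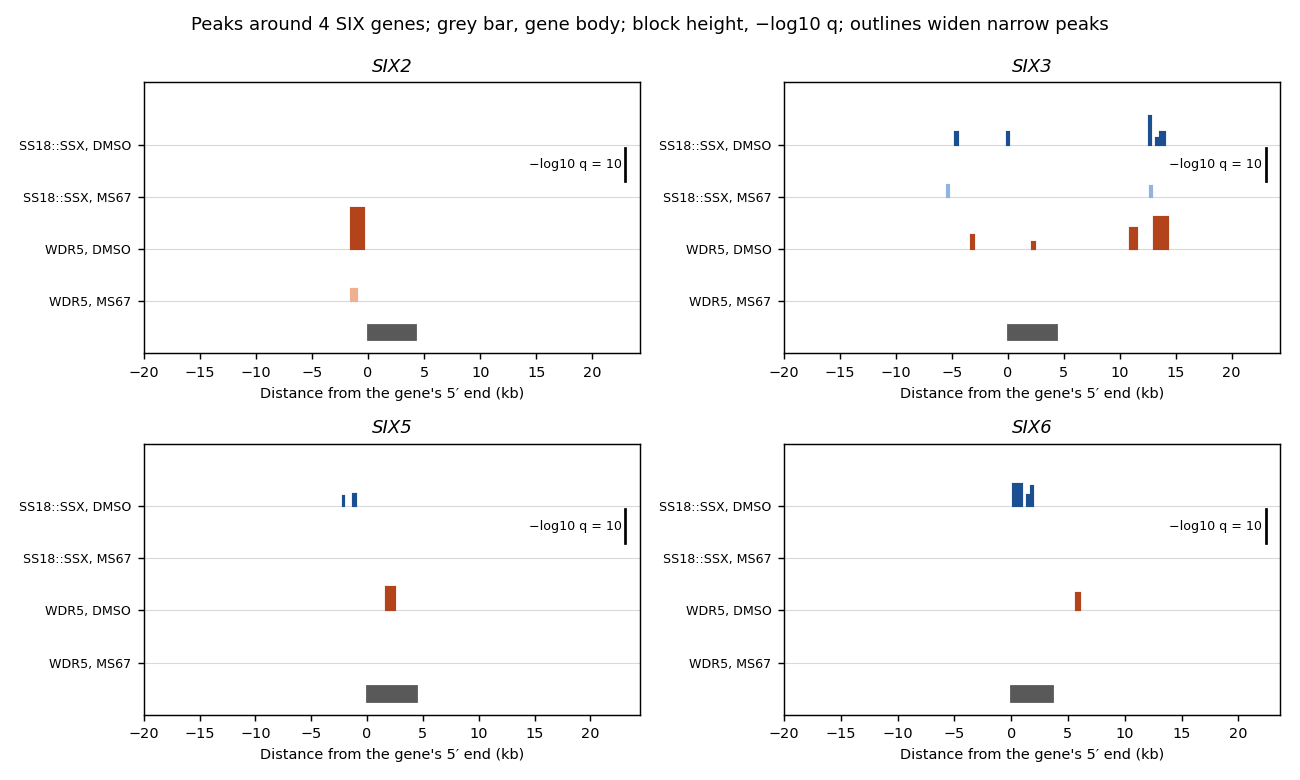
Peaks around *SIX2*, *SIX3*, *SIX5* and *SIX6*, by distance from the gene's 5′ end in kb along the direction of transcription (horizontal axis) and by list (rows). Block height is −log10 q on the scale of the bar, outlines widen narrow peaks, and the grey bar is the gene body. SS18::SSX peaks lie inside *SIX6*, upstream of *SIX5* and on both sides of *SIX3*, and the *SIX2* WDR5 peak has −log10 q of 12.2 with DMSO and 3.64 with MS67.

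*EYA4*, a cofactor gene linked to hearing and heart muscle, was the only member where SS18::SSX and WDR5 peaks at a promoter overlapped. The gene is on the plus strand at chr6:133240514-133532128 (ENSG00000112319) and has 26 annotated start sites. With DMSO the SS18::SSX peak chr6:133241991-133242191 was 5.28-fold enriched with −log10 q of 5.06 and 14 fragments, centred 615 bp upstream of a start site that lies 2192 bp inside the gene. The WDR5 peak chr6:133242104-133242608 was centred 350 bp upstream of the same start and was 5.84-fold enriched with −log10 q of 6.05 and 13 fragments. They shared 88 bp, or 43.8% of the SS18::SSX peak. The start used for both belongs to a transcript with no defined coding sequence, and the SS18::SSX centre lay 459 bp past a nearer start. When only the 5′ end of the gene counted, *EYA4* had no promoter peak of either target. A second SS18::SSX peak, chr6:133242867-133243037, lay in the intron beyond at 4.47-fold, with −log10 q of 3.45 and 12 fragments. With MS67 neither target was called, and the 3 DMSO peaks lay within the first 3 kb of the gene, in a window of 331615 bp.

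The stretch shared by both targets at *EYA4* is shown because it is the promoter site of both. It is the plus strand of chr6:133242104-133242191, 5′ to 3′, and held no match to the 4 motifs.
EYA4 cobound site: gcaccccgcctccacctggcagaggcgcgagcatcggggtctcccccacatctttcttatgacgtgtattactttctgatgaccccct

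*EYA3* had WDR5 but not SS18::SSX peaks. The gene is on the minus strand at chr1:27970344-28088637 (ENSG00000158161). With DMSO the peak inside the gene, chr1:28087588-28087844, lay in an intron 848 bp past a start site with 4.48-fold enrichment, −log10 q of 3.29 and 9 fragments, and was not called with MS67. The other 2 DMSO peaks lay past the 3′ end at neighbouring promoters. The higher, chr1:27959433-27960735, was 1303 bp wide at the promoter of *XKR8*, a phospholipid scramblase gene, with −log10 q of 5.97 and 15 fragments, and both MS67 peaks lay within it, each with −log10 q of 3.09 and 7 fragments. One of these lay at the promoter of *XKR8* alone and the other also at that of the RNA gene ENSG00000227050, so the sites called with both treatments were at neighbouring promoters and not in *EYA3*. The nearest SS18::SSX peak with DMSO lay 54896 bp from the gene.

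*EYA2* (chr20:46894624-47188844, plus strand, ENSG00000064655) had 0 peaks in all 4 lists in a window of 334221 bp, the second longest of the 9. The nearest SS18::SSX peak with DMSO was 562890 bp away and the nearest WDR5 peak 141581 bp away. Within 500 kb of the gene there were 0 SS18::SSX peaks with either treatment, and 11 WDR5 peaks with DMSO and 1 with MS67.

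*EYA1*, mutated in a syndrome of ear, branchial and kidney defects, held 26 of the 54 peaks, in the longest window. The gene is on the minus strand at chr8:71197433-71592025 (ENSG00000104313) with 24 annotated start sites, and most of its peaks lay in introns. SS18::SSX was called 6 times with DMSO, with −log10 q from 2.51 to 9.37 and 19 to 34 fragments. At internal promoters, chr8:71356577-71356771 was centred 4 bp past a start site 235347 bp from the gene's 5′ end (3.93-fold, −log10 q of 5.32, 24 fragments), and chr8:71357412-71357560 was centred 792 bp upstream of a nearby start (3.02-fold, −log10 q of 2.51, 19 fragments). The highest of the 6, chr8:71606068-71606325, lay 14172 bp upstream of the gene, 4.57-fold enriched with −log10 q of 9.37 and 34 fragments. No SS18::SSX peak lay at the promoter of the 5′ end.

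With MS67, SS18::SSX was called once, at chr8:71606403-71606618, with 2.67-fold enrichment, −log10 q of 4.78 and 51 fragments over a background of 18.5. It began 78 bp from the upstream DMSO peak without overlapping it. The upstream site was thus called with both treatments under a tolerance of 1 kb, while the 5 SS18::SSX peaks in the gene body were not.

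WDR5 was called 12 times at *EYA1* with DMSO, with −log10 q from 1.77 to 7.43 and 7 to 38 fragments. The highest, chr8:71556269-71557389, was 1121 bp wide and 3.44-fold enriched with 38 fragments, and contained whole the SS18::SSX peak chr8:71556781-71557218 (3.78-fold, 23 fragments). The upstream SS18::SSX peak with DMSO also met a WDR5 peak, over 204 bp. At a start site 43838 bp from the 5′ end, 2 WDR5 peaks lay at the promoter, centred 39 bp upstream (19 fragments, −log10 q of 3.94) and 625 bp upstream (19 fragments, −log10 q of 3.62).

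With MS67, 7 WDR5 peaks were called at *EYA1*, and 5 of them overlapped a DMSO peak. The promoter sites were among them, now with 11 fragments and −log10 q of 2.07, and with 15 fragments and −log10 q of 4.21. The highest, chr8:71556795-71557361, had −log10 q of 8.46 and 27 fragments at the site of the highest DMSO peak. Per coverage of the own library, all 5 sites were higher with MS67 than with DMSO, by ratios of 2.55, 1.26, 1.72, 1.55 and 1.55. Over all 9293 WDR5 pairs of the whole lists the median ratio was 1.26, with 72.6% above 1. A pair needs a call in the MS67 library of lower coverage, which favours sites that are high per coverage there. The ratios are also not scaled by the spike-in, and with such scaling the paper reported lower WDR5 binding after MS67. They thus show no gain of WDR5 at *EYA1*. Before division by coverage, the summits were lower with MS67, except at the DMSO peak beginning at chr8:71484590 (12 fragments with DMSO, 14 with MS67). The other 2 MS67 peaks, beginning at chr8:71414089 (6 fragments) and chr8:71602624 (12 fragments), had no DMSO peak within 1 kb. *EYA1* was the only member with a WDR5 promoter peak in both treatments.

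**Figure D3:**
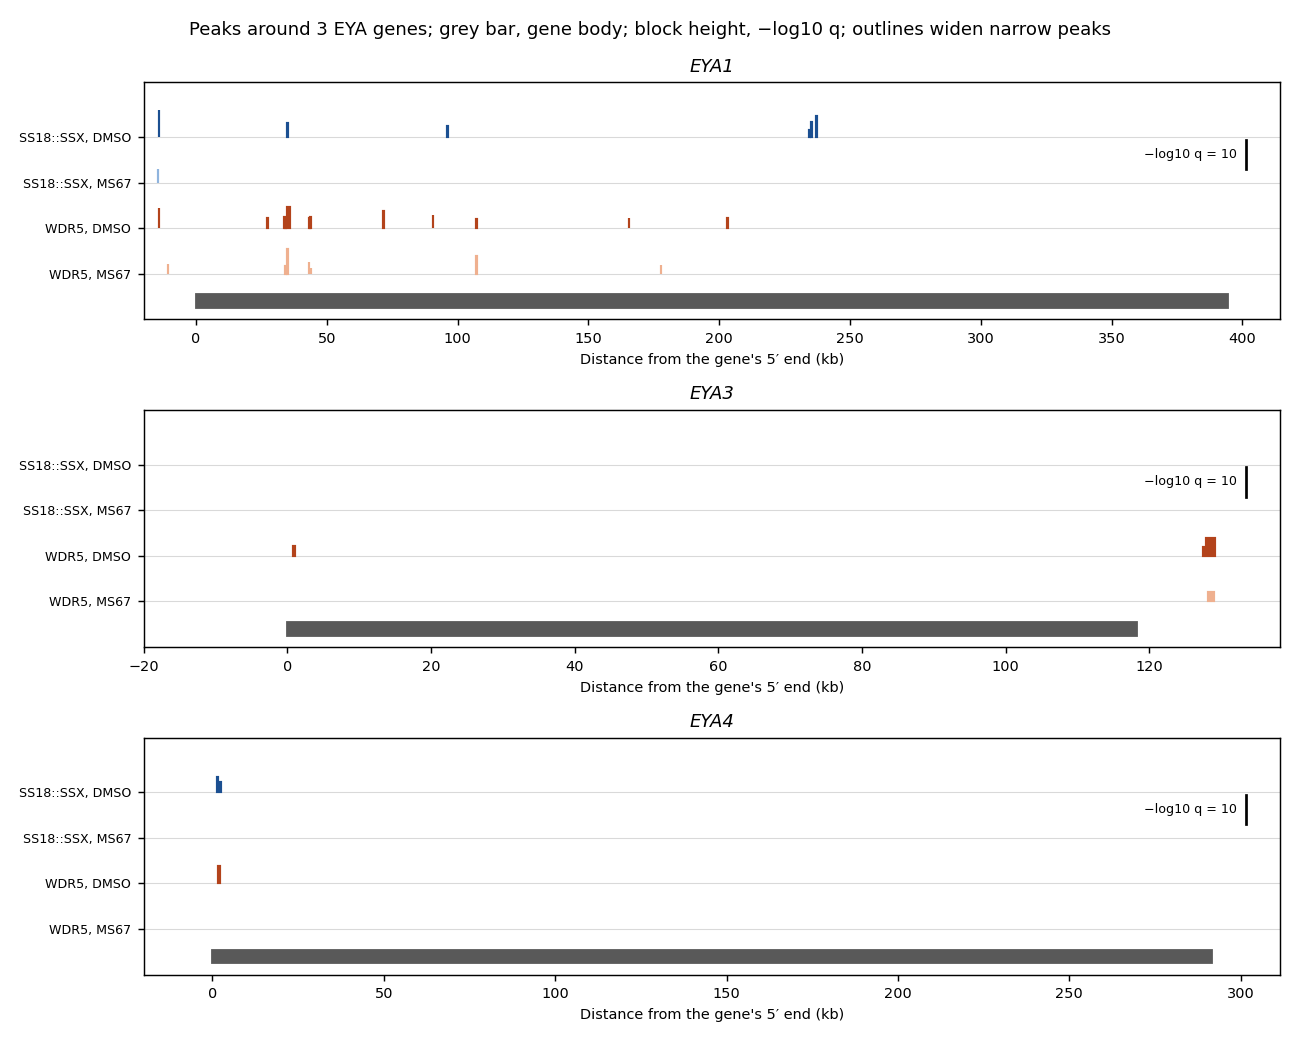
Peaks around *EYA1*, *EYA3* and *EYA4*, by distance from the gene's 5′ end in kb along the direction of transcription (horizontal axis) and by list (rows). Block height is −log10 q on the scale of the bar, outlines widen narrow peaks, and the grey bar is the gene body. WDR5 peaks of *EYA1* stand with both treatments, most *EYA3* peaks lie beyond its 3′ end, and all *EYA4* peaks lie at its 5′ end and are from the DMSO lists.

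Across the 9 genes, 17 of the 18 SS18::SSX peaks with DMSO overlapped no MS67 peak, or 94.4% (exact Clopper-Pearson 95% interval 72.7 to 99.9), against 94.2% of the whole list. This share was close to that of the whole list. When overlap was widened to 1 kb, 13 of 18 (72.2%, 46.5 to 90.3) had no MS67 peak, against 89.7% of the whole list. The 5 near one lay at *SIX3* and *EYA1*, 4 of them around *SIX3*. After scaling each DMSO summit and background to the coverage of the MS67 library, all 18 would have passed the smallest p-value in the MS67 list (96.9% of the whole list), the 17 included. The MS67 library had the higher coverage, so scaling raised these values. Before scaling the lowest of the 18 had −log10 p of 5.26, already above the MS67 minimum of 5.04. The result was thus fixed in advance, and nothing is drawn from it.

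For WDR5, 16 of 23 DMSO peaks overlapped no MS67 peak, or 69.6% (47.1 to 86.8), against 75% of the whole list. After scaling to the lower MS67 coverage, 11 of the 23 peaks would have passed the smallest MS67 p-value, and among the 16 not called these were 8. These shares, 47.8% and 50%, stand beside 43.7% and 36.3% of the whole list. The other 8 of the 16 would have fallen below it at that depth, so for these depth and treatment cannot be told apart. Scaling takes the expected summit of a peak without sampling error. The lowest of the 8 that passed, an *EYA1* peak, had a scaled −log10 p of 4.08 against the MS67 minimum of 4.06. The part of depth was thus not tested for these 8 either.

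At 9 pairs of overlapping DMSO and MS67 peaks the summits could be compared, each divided by the coverage of its own library. The 8 WDR5 pairs had a median ratio of 1.40, with 7 above 1, and the 9293 WDR5 pairs of the whole lists had a median of 1.26 (quartiles 0.970 and 1.61) with 72.6% above 1. A pair exists only where a peak was called in both libraries. For WDR5 this favours sites that are high per coverage in the MS67 library, which had the lower coverage. The ratio is relative to the rest of each library, since the spike-in was not analysed here.

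**Figure D4:**
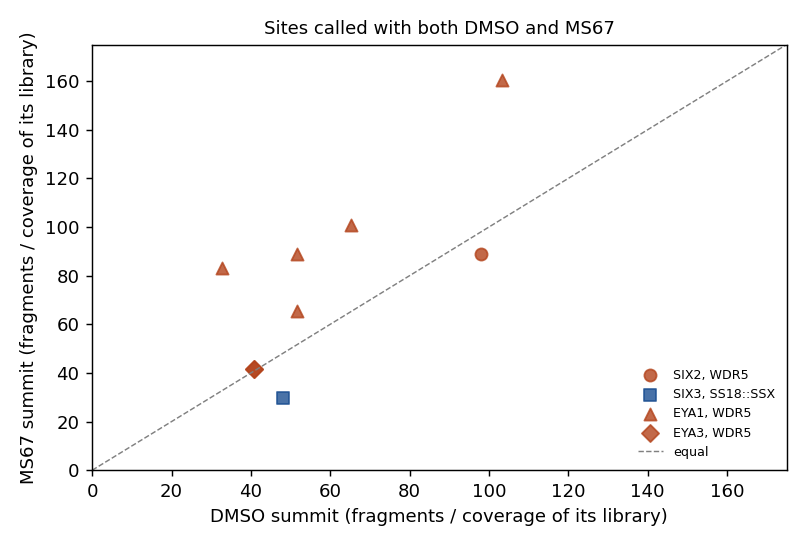
Summit height with MS67 (vertical axis) against DMSO (horizontal axis), each as fragments divided by the coverage of its library, for the 9 pairs of overlapping peaks. The dashed line marks equal values and both *EYA3* points coincide. The 5 *EYA1* WDR5 pairs lie above the line, and *SIX2* WDR5 and *SIX3* SS18::SSX lie below it.

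SS18::SSX and WDR5 peaks overlapped at 3 of the 9 genes. The share of all protein-coding genes with such an overlap was not computed, so this count has no background beside it. With DMSO, WDR5 was also called at 5 of the 18 SS18::SSX peaks, or 27.8% (9.69 to 53.5), against 33.7% of the whole list, and 4 of the 23 WDR5 peaks overlapped an SS18::SSX peak, or 17.4% (4.95 to 38.8), against 13.9% of the whole list. Both shares lay near those of the whole lists. With the stricter WDR5 threshold described above, 0 of these overlaps remained. These sites lay at *SIX3*, *EYA1* and *EYA4*. Of the 5 SS18::SSX peaks that met WDR5, 0 overlapped an SS18::SSX peak with MS67, against 1 of the 13 that did not. Of the 4 WDR5 peaks that met SS18::SSX, 1 overlapped a WDR5 peak with MS67, the one inside *EYA1*, against 6 of the 19 others. In the whole lists, 94.2% of SS18::SSX and 75% of WDR5 peaks with DMSO overlapped no MS67 peak of the same target. The split by overlap with the other target was not computed there, so no contrast is drawn from these counts.

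By strength and base composition the peaks resembled those of the whole lists in part. Their median −log10 q was 3.89 for SS18::SSX with DMSO against 3.68 for all peaks of the list, and 4.25 against 4.37 for WDR5 with DMSO. The median GC content was 56.9% against 60.6% for SS18::SSX and 59.3% against 58.5% for WDR5. Among the SS18::SSX peaks with DMSO, 4 of 18 held CCAAT (22.2% against 22.8% of the list), 2 held GGGCGG (11.1% against 27.9%), 1 held CACGTG (5.56% against 7.16%) and 1 held TCAGGTT (5.56% against 3.13%). Among the 23 WDR5 peaks with DMSO these were 8 (34.8% against 28.0%), 7 (30.4% against 36.0%), 1 (4.35% against 8.16%) and 0 (against 4.18%). A match to letters is no binding site, and peaks differ in width.

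Among 12 other genes of the network, chosen together with the 9 genes, 10 had an SS18::SSX peak in the window with DMSO (37.2% of all protein-coding genes) and 1 with MS67 (4.53%), and 11 had a WDR5 peak with DMSO (79.3%) and 4 with MS67 (60.2%). Their windows were longer than most, with a median of 118737 bp and up to 724154 bp for *DACH2*, against 67466 bp for all protein-coding genes. *PAX2*, the kidney and ear partner of *EYA1* in the network, had 17 SS18::SSX peaks with DMSO and 2 with MS67, and 13 WDR5 peaks with DMSO and 1 with MS67. *DACH1*, a corepressor that works with SIX-family and EYA proteins, had 11 SS18::SSX peaks with DMSO and 0 with MS67. Promoter peaks of SS18::SSX with DMSO were at *GDNF*, a ligand of kidney development, *MYOD1*, a muscle regulator, *PAX2* and *PAX6*, 4 of the 12 (13.4% of all protein-coding genes). *MYOG*, a muscle gene that carries a MEF3 site, had 0 peaks in all 4 lists. SS18::SSX with MS67 was thus called around *SIX3*, *EYA1* and *PAX2* alone among these and the 9 genes.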

How the data were processed

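Peak lists of 4 CUT&RUN libraries of HSSY II cells were used, 1 per target (SS18::SSX, WDR5) and treatment (DMSO, MS67). The authors aligned reads to hg38 and the spike-in genome mm10 with Bowtie2, marked duplicates with Picard and called peaks with MACS2. The MACS2 options, control and excluded regions are not given in the sources used here. The deposited columns hold a fold enrichment (a ratio), −log10 of p and q, and a score, of which the score was not used. The lowest −log10 q in a list was 1.30 to 1.35. No list was scaled by the spike-in.

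Windows, start sites and features came from GENCODE release 44 (hg38). Overlap required 1 bp. Summit fragments and background were recovered from fold and p, under the assumed form given above, within 0.001 for 100% of peaks. Coverage was the lowest background of each library. Sequences were read from hg38. Intervals are exact Poisson or Clopper-Pearson (95%). With 1 library per condition there was no test. The recovery and overlap code was tested on simulated data.

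The 9 genes, the 12 network genes, the 4 sarcoma genes and the motifs were chosen with earlier results of these data known. The text names all 9 genes, their promoter peaks, the peak of highest −log10 q per window and list, every SS18::SSX peak with MS67, and genes at which such peaks lie. Other peaks named for an overlap or a sequence were chosen after their values were seen. Alternatives changed the window, promoter, peak threshold and overlap. The stricter threshold is the standard that the study states for comparing its SS18::SSX and WDR5 peaks. Leaving out *SIX3* was added after seeing the data. Python 3.11.15, pandas 2.3.3, scipy 1.17.1 and pysam 0.24.0 were used.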

Additional observations from a re-analysis of the deposited data

How the results depend on the processing

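Of 59 recomputed values, 32 stayed close to those reported and 27 moved. These values are counts and shares without a sign, so a reversal of direction was not assessed. Limiting windows to the gene body left 11 SS18::SSX peaks with DMSO and 0 with MS67, and 15 and 6 WDR5 peaks. Windows with 50 kb flanks gave 37 WDR5 peaks with DMSO. Requiring −log10 q above 5 left 7 SS18::SSX peaks with DMSO and 0 with MS67, and 10 and 2 WDR5 peaks. A stricter threshold (−log10 q above 3, with fold above 3 for SS18::SSX and 6 for WDR5) left 0 WDR5 peaks with DMSO and 1 with MS67, so that 0 genes had a WDR5 promoter peak with either treatment and 0% of SS18::SSX peaks overlapped WDR5. Merging nearby peaks gave 11 SS18::SSX peaks with DMSO. Counting only the 5′ end of each gene as a promoter left 1 gene for SS18::SSX with DMSO, 1 for WDR5 with DMSO and 0 for WDR5 with MS67, while any overlap of a peak with a promoter gave 2 genes for WDR5 with MS67. The share of SS18::SSX peaks not called with MS67 was 100% in gene bodies, at −log10 q above 5 and with 50% overlap, 72.2% with a tolerance of 1 kb, and 50% (1 of 2) when the DMSO list was shortened to the length of the MS67 list. The WDR5 share was 90% at −log10 q above 5 and 87.0% with 50% overlap. The WDR5 share could not be recomputed under the threshold of fold above 6, where no DMSO peak remained. Leaving out the window of *SIX3*, chosen after seeing the data, left 1 SS18::SSX peak with MS67. The stricter settings hold fewer peaks by construction, and for the other settings the cause was not tested. No paired analysis was possible because each group is 1 library.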
